A study of Mus musculus with 6 samples.

Results

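The genes described here are 9 transcription factors and cofactors that set fast and slow fibre programmes and the passage from fetal to adult muscle: Six4, Eya1, Eya4, Nfix, Tbx15, Sox6, Prox1, Maf and Nfatc1. They were taken from a list of symbols, and each matched 1 row among the 54532 genes of the count table. All 9 passed the filter on low counts and were among the 14715 genes tested. The libraries are read counts per gene from quadriceps RNA from pups 10 days old, 3 from control pups (Pcyt2 flox/flox) and 3 from Myf5Cre-Pcyt2 pups (Myf5Cre-Pcyt2 flox/flox), all kept on chow. Both groups carry the floxed Pcyt2 allele, and the labels do not say that the controls carry Cre, so loss of Pcyt2 and the presence of Cre at Myf5 cannot be told apart. Myf5 is active in precursors of skeletal muscle, so Cre driven from it acts mainly in that lineage, while whole quadriceps also holds vessels, nerves and immune cells. Pcyt2 encodes an enzyme of phosphatidylethanolamine synthesis.

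Library totals lay between 17775898 and 20446920 counts. Pcyt2 itself was at 16.9 ± 1.52 CPM (counts scaled to a common library total, SD, n = 3) in control and 13.9 ± 1.23 CPM in Myf5Cre-Pcyt2 and did not pass the threshold (edgeR adjusted p = 0.0944), and a count per gene does not show whether the deleted part is missing. Levels are CPM after TMM normalisation, in which each library total is scaled by the trimmed mean of M values. The scaling factors ran from 0.853 in control replicate 2 to 1.12 in Myf5Cre-Pcyt2 replicate 2, and those libraries stood at the ends of many of the ranges below. Muscle fibre markers, which include Acta1, Ckm and Ttn, summed to between 87211 and 115727 CPM in control and between 62521 and 68148 CPM in Myf5Cre-Pcyt2, and 3 of 6 fell. In whole muscle, fewer cells of a type and less RNA per cell cannot be told apart.

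Skeletal muscle fibres of the mouse differ in the myosin and metabolism they use, and transcription factors of several families set that choice. SIX4 with its EYA coactivators, TBX15 and the large MAF proteins are known to favour fast glycolytic genes, and SOX6 represses slow-fibre genes in fast fibres. NFATc1, moved into the nucleus by the phosphatase calcineurin when a nerve fires slowly, and PROX1 favour the slow programme, and NFIX switches muscle from embryonic to fetal transcription.

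SOX6 is also a known target of microRNAs made from introns of slow myosin genes. RefSeq (build GRCm38.p6) places Mir499 inside Myh7b (chr2:155622893-155622913, plus strand) and Mir208b inside Myh7 (chr14:54975710-54975731, minus strand). Their mature sequences are shown because the Sox6 transcript holds matches to both, with the seed, bases 2 to 8, in capitals.
miR-499-5p: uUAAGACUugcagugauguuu
miR-208b-3p: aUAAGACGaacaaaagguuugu
The 3′ untranslated region of the longest such Sox6 transcript in GENCODE M21 is 6046 bases long. It holds 3 matches to the miR-499-5p seed, AGTCTTA, and 1 match to the miR-208b-3p seed, CGTCTTA. They are printed with 11 bases on either side and the match in capitals.
Sox6 site for miR-499-5p, chr7:115476627-115476633: gccgtcttatgAGTCTTAcatttctgtct
Sox6 site for miR-499-5p, chr7:115476314-115476320: actattttaaaAGTCTTAcaggagacact
Sox6 site for miR-499-5p, chr7:115476292-115476298: agacactgcaaAGTCTTAgacaatctttg
Sox6 site for miR-208b-3p, chr7:115476636-115476642: ctgcccatcgcCGTCTTAtgagtcttaca
The sites lie on the minus strand of GRCm38, 276 to 620 bases into the untranslated region. None of the other 8 genes held either match in regions of 1636 to 5185 bases. The shorter match to bases 2 to 7, GTCTTA, which is the same for both microRNAs, occurred 8 times in Sox6. It occurred 2 times each in Eya4 and Maf and 1 time each in Nfatc1 and Six4, and 25% of all genes with such a region held it. Of 21027 genes with such a region, 9.46% held at least 1 AGTCTTA and 1.52% at least 1 CGTCTTA, in regions with a mean length of 1481 bases. Mature microRNAs were not measured: the Mir499 and Mir208b rows are at 0 counts in all libraries, and these long-RNA counts do not bear on microRNA level.

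**Figure D1:**
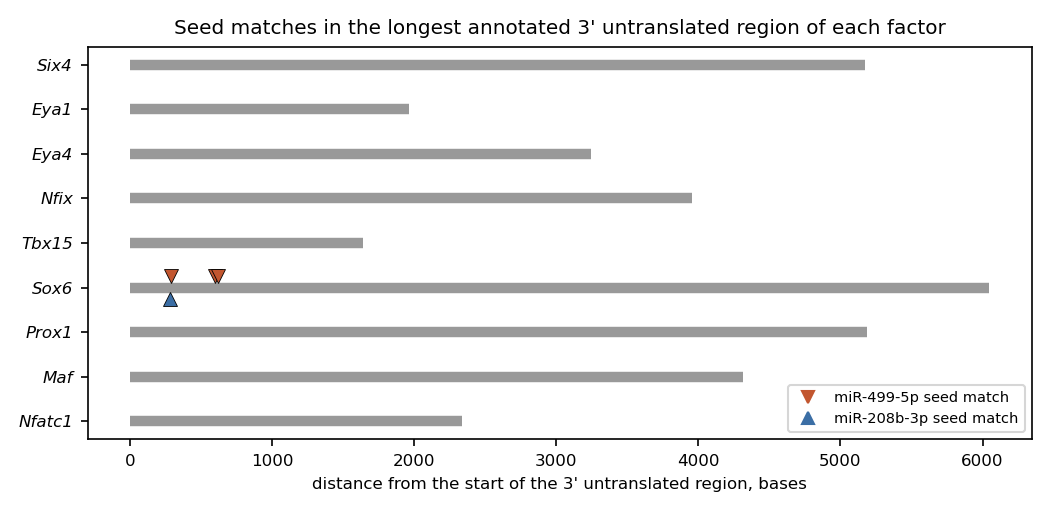
Longest annotated 3′ untranslated region of each of the 9 genes (grey bar, bases from its start on the x axis) with matches to the miR-499-5p seed (downward triangles) and the miR-208b-3p seed (upward triangles). The 3 and 1 matches all lie in the Sox6 bar, between bases 276 and 620 of 6046.

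Sox6 and Maf fell and Prox1 rose in Myf5Cre-Pcyt2 muscle, and the other 6 genes did not pass the threshold of 0.05 on the adjusted p. Thus 1 of 9 was higher, where 9.02% of all tested genes were, and 2 of 9 were lower, where 9.59% of all tested genes were. In either direction 18.6% of all tested genes passed. Control and Myf5Cre-Pcyt2 libraries did not overlap for 4 of the 9, Six4 in addition to those 3, against 39% of all tested genes. No member reached a 2-fold difference. The log2 fold changes of the 9, Myf5Cre-Pcyt2 over control, ran from −0.46 to 0.53 with a median of −0.22, where the median over all genes was −0.00197 and genes past the threshold had a median size of 0.54. Scaling by library size alone moves the median gene up by 0.21, and only Prox1 of the 9 passed then. On that scale the groups of Six4 and Maf overlapped, and those of Sox6 and Prox1 did not.

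**Figure D2:**
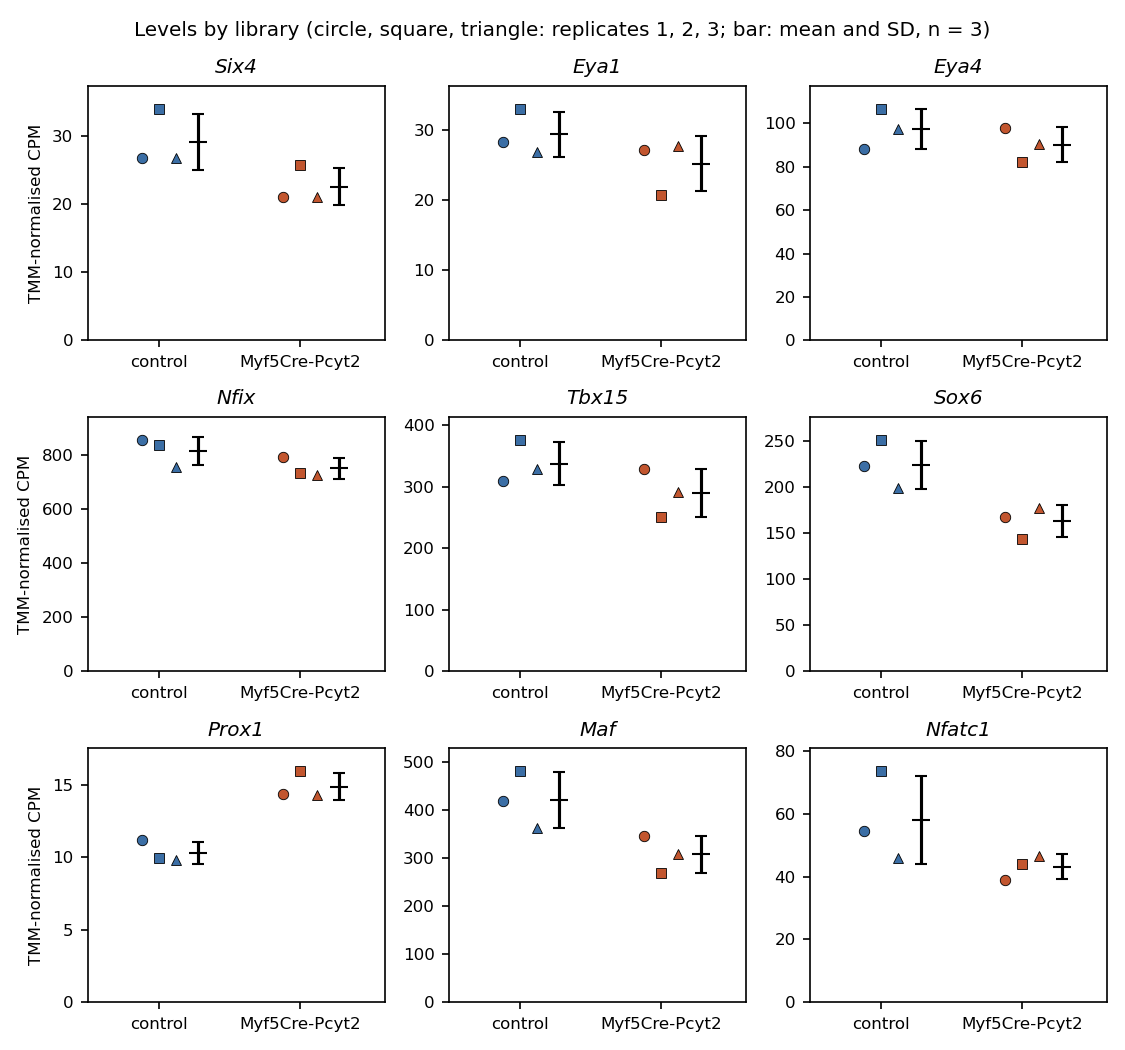
TMM-normalised CPM (y axis, from 0) of each gene in the 3 control and 3 Myf5Cre-Pcyt2 libraries, with the mean and SD beside the points. Prox1 is higher and Sox6, Maf and Six4 are lower in every Myf5Cre-Pcyt2 library than in any control library, and the other 5 genes overlap.

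Sox6 (ENSMUSG00000051910, GRCm38 chr7:115470872-116038796, minus strand) encodes the SOXD protein that represses slow contractile genes. Its level was 222, 251 and 199 CPM in the control libraries and 167, 143 and 178 CPM in the Myf5Cre-Pcyt2 libraries. Every Myf5Cre-Pcyt2 library was below every control library, with Myf5Cre-Pcyt2 replicate 2 the lowest. Sox6 fell to 72.6% of the control level (95% interval 61 to 86.5%), a log2 fold change of −0.46 (SE 0.11, edgeR adjusted p = 0.0204). The call was lost when control replicate 2 (adjusted p = 0.0687) or Myf5Cre-Pcyt2 replicate 2 (0.0892) was left out and when libraries were scaled by size alone (0.0873). Over 16 alternatives its log2 fold change stayed negative, from −0.54 to −0.25 (adjusted p 0.000326 to 0.191).

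The promoter of Sox6 nearest to the annotated gene start is shown with that of Prox1, since these genes moved in opposite directions. Both are the 250 bases before a RefSeq start (GRCm38.p6, minus strand), with E-boxes, CANNTG on either strand, in capitals. E-boxes bind myogenic factors such as MYOD1 and many other proteins.
Sox6, chr7:116038745-116038994: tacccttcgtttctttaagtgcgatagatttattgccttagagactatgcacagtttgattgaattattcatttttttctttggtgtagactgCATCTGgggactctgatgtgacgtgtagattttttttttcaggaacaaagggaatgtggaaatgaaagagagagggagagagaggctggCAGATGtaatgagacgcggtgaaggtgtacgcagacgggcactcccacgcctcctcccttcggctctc
Prox1, chr1:190170828-190171077: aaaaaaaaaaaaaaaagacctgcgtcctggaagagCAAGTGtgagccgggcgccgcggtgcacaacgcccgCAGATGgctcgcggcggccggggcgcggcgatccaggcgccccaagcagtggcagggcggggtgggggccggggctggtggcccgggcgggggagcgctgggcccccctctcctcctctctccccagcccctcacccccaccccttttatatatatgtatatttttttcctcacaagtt
Each holds 2 E-boxes, and 66.2% of 32851 RefSeq promoters of this length hold at least 1. The MEF3 motif, TCAGGTT on either strand, which SIX4 can bind and 3.49% of those promoters hold, is in neither. RefSeq lists 6 promoters for Sox6 and also another for Prox1 (chr1:190169516-190169765), which holds 0 E-boxes. Counts per gene do not show which start was used. Another Sox6 promoter (chr7:115824711-115824960) holds MEF3 at position −208 from its start, and 1 of the Six4 promoters (chr12:73113246-73113495) holds it at −97.

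Prox1 (ENSMUSG00000010175, chr1:190118035-190170714, minus strand) encodes the homeobox factor of slow fibres, satellite cells and lymphatic endothelium. It had 11.2, 9.92 and 9.79 CPM in control and 14.4, 15.9 and 14.3 CPM in Myf5Cre-Pcyt2. All Myf5Cre-Pcyt2 libraries were above all control libraries, and within a group the values lay close together. Prox1 rose to 144% of the control level (95% interval 123 to 170%, log2 fold change 0.53, SE 0.11, edgeR adjusted p = 0.00972). Without Myf5Cre-Pcyt2 replicate 2 it did not pass (adjusted p = 0.0528), nor without that library and control replicate 2 together (0.128), and it passed in 14 of 16 alternatives.

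Some markers of other cells in which Prox1 is made were higher as well. Of 6 lymphatic endothelium markers 5 were tested, of which Pdpn rose and 4 did not pass. Their summed level was 50.7 to 55.7 CPM in control and 61.3 to 78.9 CPM in Myf5Cre-Pcyt2, and Ccl21a was at 0 in all 6 libraries. The lymphatic receptor gene Flt4 had a log2 fold change of 0.04 (SE 0.17) and Lyve1 one of 0.29 (SE 0.14), and neither passed. Of 6 satellite cell markers 3 rose, and their sum was 87.2 to 92.1 CPM in control and 108 to 123 CPM in Myf5Cre-Pcyt2. The part of these cells in the Prox1 result was not tested.

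Maf (ENSMUSG00000055435, chr8:115682942-115707794, minus strand) encodes c-MAF, a large MAF protein. Its level was 419, 480 and 363 CPM in control and 346, 268 and 308 CPM in Myf5Cre-Pcyt2. The groups did not overlap, though control replicate 3 and Myf5Cre-Pcyt2 replicate 1 lay close together. With library size alone the groups overlapped, with control replicate 3 at 353 CPM and Myf5Cre-Pcyt2 replicate 1 at 355 CPM. Maf fell to 73% of control (95% interval 59.9 to 89%, log2 fold change −0.45, SE 0.13, edgeR adjusted p = 0.0346). Leaving out control replicate 1 (adjusted p = 0.0540), control replicate 2 (0.107), Myf5Cre-Pcyt2 replicate 2 (0.137) or Myf5Cre-Pcyt2 replicate 3 (0.104) ended the call, as did scaling by library size alone (0.102). Over the alternatives the log2 fold change ran from −0.55 to −0.24 and the adjusted p from 0.000742 to 0.267. Macrophages also make Maf, and 0 of 6 macrophage markers passed (0 with DESeq2 and limma-voom, 3 higher at an unadjusted p under 0.05), with sums of 121 to 148 CPM in control and 147 to 168 CPM in Myf5Cre-Pcyt2. The annotated antisense gene Gm15655 shares 440 exon bases with Maf and was at 1.27 CPM or less, and no source used here says whether counting used strand.

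Among the partners, Mafa, which encodes another large MAF protein of fast fibres, had 288 ± 25.8 and 234 ± 37 CPM (log2 fold change −0.30, SE 0.12, edgeR adjusted p = 0.115).

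Nfatc1 (ENSMUSG00000033016, chromosome 18, 80606205 to 80713071) encodes the calcineurin-dependent factor of slow activity. It was at 54.4, 73.5 and 45.9 CPM in control and 38.8, 44 and 46.5 CPM in Myf5Cre-Pcyt2. The groups overlapped at control replicate 3, and control replicate 2 was far above the rest, so the coefficient of variation was 24.4% in control and 9.08% in Myf5Cre-Pcyt2. The log2 fold change was −0.43 (SE 0.15), or 74.4% of control (95% interval 59.1 to 93.8%), and did not pass (edgeR adjusted p = 0.0720). It passed with DESeq2 (0.0300), without control replicate 3 (0.0231) and with no filter on low counts (0.000929), and over 16 alternatives the adjusted p reached 0.373. Without control replicate 2 the log2 fold change was −0.22.

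Six4 (ENSMUSG00000034460, chr12:73099609-73113456, minus strand), a homeobox factor of the fast programme, was at 26.8, 34 and 26.8 CPM in control and 21.1, 25.7 and 21 CPM in Myf5Cre-Pcyt2. No control library fell below the highest Myf5Cre-Pcyt2 library. With library size alone the groups overlapped, with Myf5Cre-Pcyt2 replicate 2 at 28.8 CPM and control at 25.9, 29 and 26 CPM. The log2 fold change of −0.37 (SE 0.12, 95% interval −0.63 to −0.10) did not pass (edgeR adjusted p = 0.0587). With no filter on low counts it did (0.0108), and over the alternatives the adjusted p ran up to 0.414. Without control replicate 2 the log2 fold change was −0.24, and with library size alone −0.14.

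The EYA coactivators that pair with Six4 did not pass either. Eya1 (ENSMUSG00000025932, chr1:14168954-14310235) was at 28.3, 33 and 26.9 CPM in control and 27.2, 20.7 and 27.7 CPM in Myf5Cre-Pcyt2. The groups overlapped, and Myf5Cre-Pcyt2 replicate 2 alone lay below all controls. Its log2 fold change was −0.22 (SE 0.13, 95% interval −0.50 to 0.05, edgeR adjusted p = 0.230). Scaling by library size alone gave −0.011, and the value was −0.13 if control replicate 2 and −0.099 if Myf5Cre-Pcyt2 replicate 2 was left out. Eya4 (ENSMUSG00000010461, chr10:23102963-23350786), the most abundant EYA gene here, was at 87.9, 107 and 97.5 CPM in control and 98, 82.1 and 90.4 CPM in Myf5Cre-Pcyt2. The ranges overlapped, with a log2 fold change of −0.11 (SE 0.10, 95% interval −0.33 to 0.11, adjusted p = 0.468) that turned to 0.10 with library size alone.

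Nfix (ENSMUSG00000001911, chr8:84699876-84800344), the fetal switch gene, was at 854, 834 and 756 CPM in control and 793, 731 and 724 CPM in Myf5Cre-Pcyt2. Control replicate 3 lay within the range of Myf5Cre-Pcyt2, and Myf5Cre-Pcyt2 replicate 1 within that of control. The log2 fold change was −0.12 (SE 0.10, 95% interval −0.35 to 0.11, edgeR adjusted p = 0.440) and became 0.089 with library size alone. Tbx15 (ENSMUSG00000027868, chr3:99240381-99354259), a T-box factor of glycolytic fibres also made in fibroblasts and adipocyte precursors, had 309, 376 and 329 CPM in control and 329, 251 and 291 CPM in Myf5Cre-Pcyt2. Its groups overlapped, and the log2 fold change was −0.22 (SE 0.12, 95% interval −0.48 to 0.05, adjusted p = 0.224). Leaving out control replicate 2 gave −0.13, leaving out Myf5Cre-Pcyt2 replicate 2 gave −0.12, and library size alone gave −0.0077. Of 6 fibroblast markers 1 rose and 5 did not pass (2 higher at an unadjusted p under 0.05). These markers summed to 8505 to 11036 CPM in control and 11651 to 13267 CPM in Myf5Cre-Pcyt2, and their part in the Tbx15 value was not tested. The intervals of Eya1, Eya4, Nfix and Tbx15 include 0 and exclude a 2-fold fall.

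**Figure D3:**
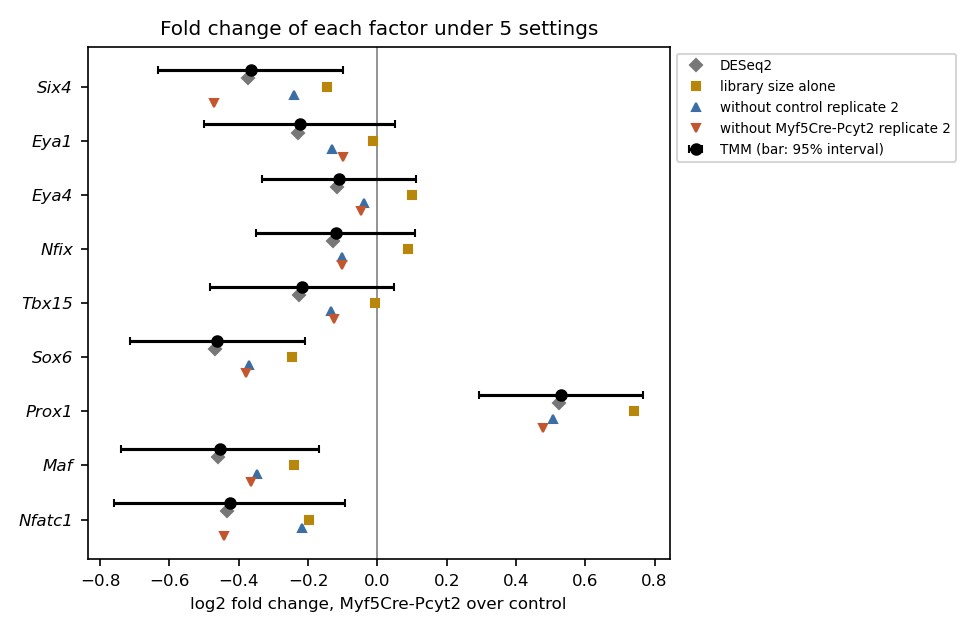
Log2 fold change (x axis) of each gene with TMM scaling (black, bar: 95% interval), DESeq2, library size alone, and without replicate 2 of either group. Prox1 stays between 0.48 and 0.74 in the settings shown, Sox6 and Maf stay negative, and library size alone takes Eya4 to 0.10 and Nfix to 0.089.

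Control replicate 2 was the highest of the 6 libraries for 7 of the 9 genes, and Myf5Cre-Pcyt2 replicate 2 the lowest for 5. With library size alone these became 3 and 4. Without both libraries, an alternative added after the data were seen, 0 of the 9 passed in edgeR, and the log2 fold changes were −0.29 for Sox6, −0.26 for Maf and 0.45 for Prox1 (adjusted p 0.191, 0.267 and 0.128); no other tool or unadjusted count was run on those 4 libraries. In that fit 237 of all tested genes passed.

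Ratios taken within a library do not depend on the scaling. Per kilobase of exon, Prox1 was at 8.20 ± 1.04% of the Sox6 level in control libraries and at 16.4 ± 2.88% in Myf5Cre-Pcyt2 libraries (SD, n = 3), with no overlap. Against Nfix, Prox1 was at 1.11 ± 0.0570% and 1.74 ± 0.163%, again with no overlap. Sox6 against Maf stayed at 29.6 ± 0.719% and 29.5 ± 2.66% (SD, n = 3). Sox6 against Nfix was 13.6 ± 1.11% and 10.8 ± 1.25%. These pairs were chosen after their values were seen and carry no test, and a ratio shows unequal change, not which gene changed.

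Levels per kilobase of exon put the 9 genes in the same order in both groups. Nfix led in control with 111 ± 7.01 CPM per kilobase (SD, n = 3), followed by Tbx15 with 90.1 ± 9.17, Maf with 51.1 ± 7.11, Sox6 with 15.1 ± 1.75 and Eya4 with 10.3 ± 0.987. Below them came Nfatc1 with 7.76 ± 1.89, Eya1 with 3.77 ± 0.409, Six4 with 2.69 ± 0.384 and Prox1 with 1.23 ± 0.0908 CPM per kilobase. In control the only neighbours whose ranges over the libraries overlapped were Eya4 and Nfatc1, though Eya4 was above Nfatc1 within each control library. In Myf5Cre-Pcyt2 they were Sox6 and Eya4, with 11 ± 1.18 and 9.57 ± 0.846 CPM per kilobase, though Sox6 was above Eya4 within each of those libraries. By mean CPM, Nfix stood above 99.3% of tested genes and Prox1 above 45.9%.

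The place of 7 of the genes in their families was read the same way. Sox6 made up 79, 80.2 and 78.5% of the summed SOXD level (Sox5, Sox6, Sox13) in control and 74.3, 67.7 and 73.3% in Myf5Cre-Pcyt2. Nfatc1 made up 42.1, 48.7 and 41.4% of Nfatc1 to Nfatc4 in control and 34.9, 35.3 and 37% in Myf5Cre-Pcyt2, and Nfatc4 made up 11.2 ± 1.55% and 15.7 ± 2.08%. Prox1 took 75.6 ± 1.52% and 83.4 ± 2.88% of Prox1 and Prox2. For the shares of Sox6, Nfatc1 and Prox1 the groups did not overlap, and the exact permutation test, two-sided, gave p = 0.1, the smallest possible with 3 against 3. Adjusted over the 7 shares compared this was 0.233. The shares of Eya1, Eya4, Nfix and Tbx15 overlapped between the groups, with exact permutation p from 0.2 to 0.9.

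**Figure D4:**
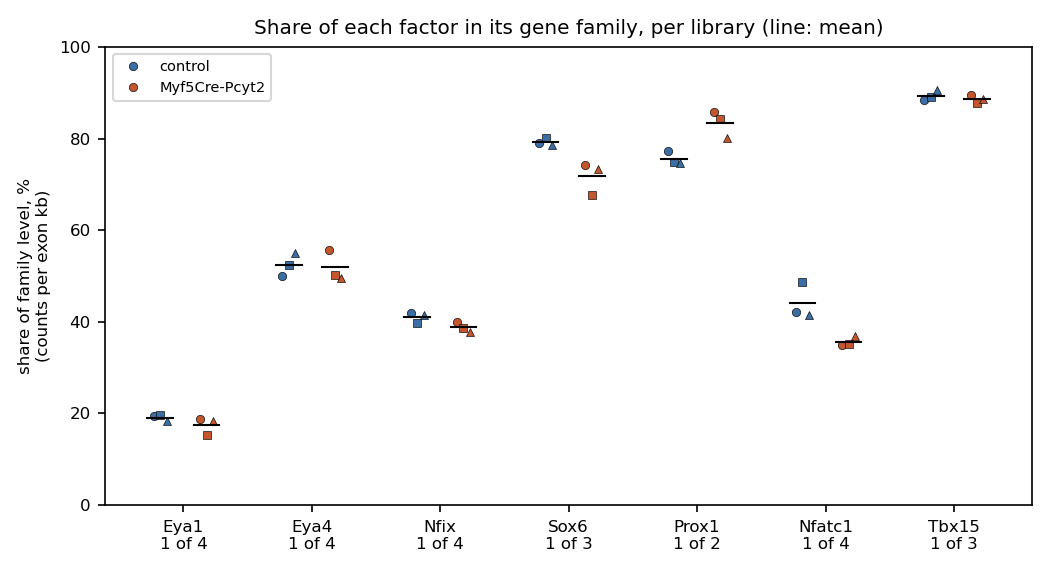
Share of each of 7 genes in the summed level of its family, in percent of counts per kilobase of exon (y axis), for each library, with the family size under the name. Sox6 and Nfatc1 sit lower and Prox1 higher in every Myf5Cre-Pcyt2 library than in any control library.

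For each gene, the protein-coding gene with the most similar profile was sought among 8465 genes of at least 10 CPM, by the root mean square difference of log2 CPM centred on each gene's mean over the 6 libraries. For Sox6 it was Pfkm, the muscle phosphofructokinase gene of the fast-fibre list (difference 0.0351), whose mean was 2311 ± 321 CPM for control libraries and 1639 ± 159 CPM for Myf5Cre-Pcyt2 libraries and which fell (log2 fold change −0.50, SE 0.14, edgeR adjusted p = 0.0338; 0.198 at most over the alternatives). For Prox1 it was Dlg5, a scaffold protein gene (0.0199, log2 fold change 0.50). For Maf it was Klf9, a glucocorticoid-responsive Krüppel-like factor gene (0.0328, log2 fold change −0.44). The profiles were matched over both groups, so the change of a matched gene follows from how it was chosen and is no separate result. The nearest genes to Six4, Eya1, Eya4, Nfix, Tbx15 and Nfatc1 were Orai3, Gpr155, Mre11a, Tmem19, Prps1 and Slc25a30, with differences from 0.0188 to 0.0728. Among the 9 themselves the closest pairs were Eya4 with Tbx15 (0.0719) and Sox6 with Maf (0.0784).

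Relatives and partners of the 9 genes were counted against the 18.6% of all tested genes that passed. Of 9 genes in a list of Six4, the EYA genes and their partners 0 rose and 0 fell (edgeR; also 0 with DESeq2 and limma-voom; 2 higher and 1 lower at an unadjusted p under 0.05), with a median log2 fold change of −0.06. Of 4 nuclear factor I genes 0 passed in edgeR, DESeq2 or limma-voom, and 1, Nfia, was higher at an unadjusted p under 0.05. Library size alone gave 3 higher in the former list and 2 in the latter. Of 13 SOXD, PROX, T-box and MAF genes 1 rose and 2 fell (median −0.15), namely the members Prox1, Sox6 and Maf and no other gene of the list. Of 16 genes of calcineurin and NFAT signalling 1 rose and 2 fell (median −0.06). These counts were 5 and 1 with library size alone (median 0.16) and 0 and 2 with DESeq2. With DESeq2 Myoz2 (adjusted p = 0.108) and Akap5 (0.0662) did not pass, and the 2 lower genes were Myoz1 and the member Nfatc1. Myoz2, the slow-fibre calsarcin gene, rose with 0.69 (SE 0.20, edgeR adjusted p = 0.0370) and is also counted in the slow-fibre list below. Myoz1, the fast-fibre calsarcin gene, and Akap5, an anchor for calcineurin and protein kinase A, fell with −0.61 (SE 0.14, adjusted p = 0.0145) and −0.49 (SE 0.14, adjusted p = 0.0398). Calsarcins bind calcineurin at the Z-disc. Without Myf5Cre-Pcyt2 replicate 2 none of these 3 passed (0.116, 0.0719 and 0.107); Myoz1 also did not pass without Myf5Cre-Pcyt2 replicate 3 (0.0686), among the fits without 1 library Myoz2 passed only in that without control replicate 3, and Akap5 in none. The calcineurin subunit genes Ppp3ca, Ppp3cb, Ppp3cc and Ppp3r1 and its feedback target Rcan1 had log2 fold changes from −0.29 to −0.05 and did not pass.

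Of 24 other fibre-type regulators 3 rose and 3 fell (median 0.04). A positive log2 fold change was seen for 15 of the 24, and at an unadjusted p under 0.05 there were 6 higher and 3 lower. Those that fell were Esrrg (−0.42, SE 0.10, edgeR adjusted p = 0.0155) and Esrra (−0.36, SE 0.08, 0.0163), estrogen-related receptors of oxidative genes, and Srf (−0.36, SE 0.08, 0.0166), a regulator of sarcomere genes. The coactivator gene Ppargc1a had −0.02 (SE 0.13) and did not pass. The counts of higher and lower genes were 0 and 0 if Myf5Cre-Pcyt2 replicate 2 was left out, 1 and 1 if control replicate 2 was, and 1 and 2 if Myf5Cre-Pcyt2 replicate 3 was. With library size alone 9 were higher and 0 lower.

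Contractile, metabolic and other genes of the programmes these factors set were counted in the same way. Of 18 fast-fibre genes 13 fell and 0 rose, with a median log2 fold change of −0.70 (17 lower and 0 higher at an unadjusted p under 0.05, 16 lower with DESeq2 and 15 with limma-voom, 0 higher with either). Pvalb, the calcium buffer of fast fibres, went from 15115 ± 3750 to 5577 ± 2215 CPM (log2 fold change −1.44, SE 0.28, edgeR adjusted p = 0.00869). Mybpc2, a fast myosin-binding protein gene, and Pgam2, a muscle glycolysis gene, fell with −1.15 and −0.81. Leaving out control replicate 2 turned the 13 into 8, and leaving out either replicate 2 or replicate 3 of Myf5Cre-Pcyt2 turned them into 3. Among 15 slow-fibre genes, 5 rose and 1 fell (median 0.69). The gene that fell was Mb, the myoglobin gene, at 283, 330 and 249 CPM in control and 130, 179 and 165 CPM in Myf5Cre-Pcyt2 (−0.86, SE 0.14, adjusted p = 0.00417). Mb is also among the muscle fibre markers. Myh7b, the host of Mir499, was at 5.29, 4.58 and 4.63 CPM in control and 9.45, 11.6 and 9.15 CPM in Myf5Cre-Pcyt2 and rose with 1.06 (SE 0.15, adjusted p = 0.00292). Myh7, the host of Mir208b, was at 205, 182 and 449 CPM and at 424, 503 and 587 CPM, with overlapping groups, and did not pass (0.86, SE 0.29, adjusted p = 0.0595). Ankrd2, a stress-responsive Z-disc gene, rose with 1.25 (SE 0.28, adjusted p = 0.0133), a call lost when control replicate 2 (0.0520) or Myf5Cre-Pcyt2 replicate 2 (0.0643) was left out. In place of 5 higher slow-fibre genes there were 3, 2 or 14 when control replicate 1, 2 or 3 was left out, and 1 or 3 when replicate 2 or 3 of the other group was. Of 7 genes in a list of embryonic and neonatal muscle genes 6 rose, and Actc1 fell (−2.03). Among the 6 were the cell adhesion gene Ncam1 (0.78) and the neonatal myosin gene Myh8 (3.04). The 6 became 4 without Myf5Cre-Pcyt2 replicate 2. Schwann cell markers, of which 4 of 6 rose, summed to 308 to 375 CPM in control and 455 to 634 CPM in Myf5Cre-Pcyt2, and their part in these results was not tested. Over the alternatives the number of them that rose ran from 0 to 5.

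Control replicate 3, the only male control by Xist and Y-linked genes, stood nearest to Myf5Cre-Pcyt2 in slow-fibre genes and not in Prox1. Its summed slow-fibre level was 5006 CPM, against 3458 and 3544 CPM in the other controls and 5135 to 6054 CPM in Myf5Cre-Pcyt2. Its Prox1 level of 9.79 CPM was the lowest of the 6 libraries, and its Sox6 and Maf levels were the lowest of the controls. With library size alone, control replicate 2 had the lowest Prox1 level, 8.46 CPM against 9.51 CPM in control replicate 3.

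**Figure D5:**
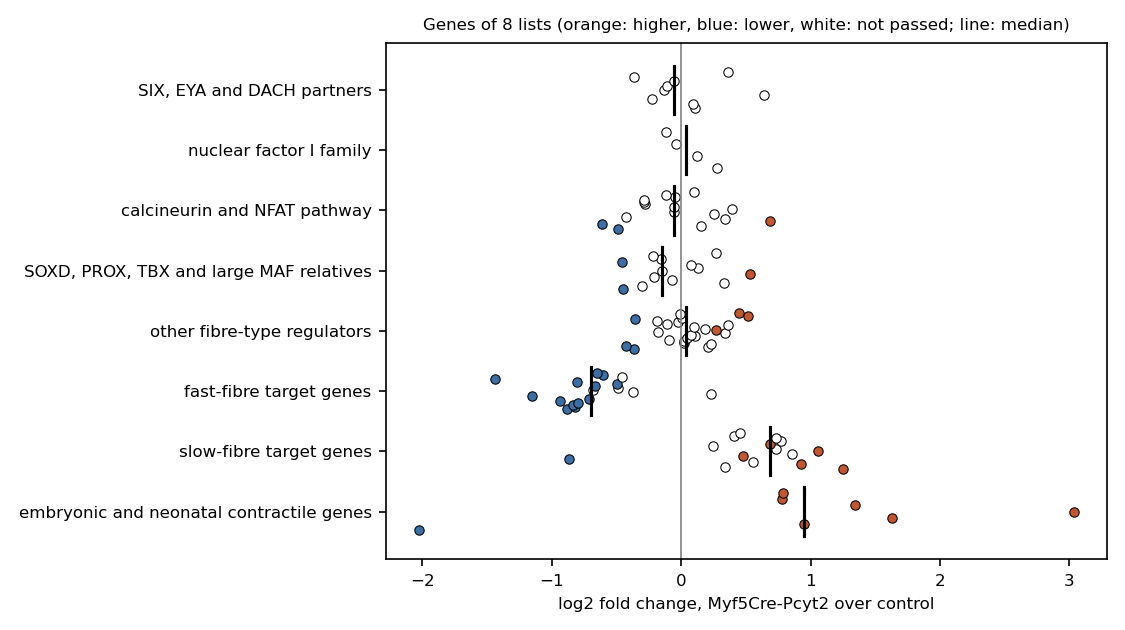
Log2 fold change (x axis) of each tested gene in 8 lists, filled where it passed the threshold, with the list median as a line. The regulator lists have medians between −0.15 and 0.04, and the fast-fibre, slow-fibre and embryonic lists have medians of −0.70, 0.69 and 0.95.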

How the data were processed

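RNA was measured in 6 quadriceps libraries, 3 control and 3 Myf5Cre-Pcyt2, grouped by their labels. The values are raw counts per Ensembl gene that the authors deposited, and the submitters' processing notes name featureCounts with Subread (1.6.2), Bowtie2 (2.3.4.1), Trim Galore (0.5.0) and GRCm38. For strand and for reads that map to several places, no setting is given in the sources used here. No label says that the samples of a group are from different litters, and a p-value covers only the spread among these libraries. By Xist and Y-linked genes, replicate 3 is male in both groups and the remaining libraries are female.

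Symbols, positions and merged exon lengths came from GENCODE M21, which named 54409 of 54532 genes. The 14715 genes kept by filterByExpr were scaled with TMM and compared with edgeR 4.0.16 (R 4.3.3), by its two-sided quasi-likelihood test, with p-values adjusted by Benjamini-Hochberg over all of them. DESeq2 1.42.0 and limma 3.58.1 (voom) were alternatives, beside other scalings, filters, a sex covariate, a replicate block and fits that left libraries out. Python 3.11.15 made the tables and figures. The procedure was tested on simulated data, where it recovered 35.8% of 1.5-fold and 81.5% of 2-fold changes. Of 153 calls there, 14 were on genes without a change. The simulation changed 67, 65 and 64 of 14513 genes by 1.5, 2 and 4 fold, while 18.6% of tested genes passed in the data. The rates in the data may therefore differ from these. The members and gene lists were chosen with earlier results of these data known. The text names the 9 members, Pcyt2, up to 3 genes with the smallest adjusted p in each pathway list and the gene most like each member. Other genes named were chosen after their values were seen. Promoter entries matched 5 of the 9 members. Some relatives of the members are not reported here, and lists and family shares were computed without them.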

Additional observations from a re-analysis of the deposited data

How the results depend on the processing

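The number of the 9 genes that were higher was 1, and lower 2, in edgeR with TMM. The higher count stayed at 1 in every alternative except without Myf5Cre-Pcyt2 replicate 2, alone or with control replicate 2 (0 each), so leaving out single libraries gave 0 to 1. The lower count was 0 with library size alone, 4 with no filter on low counts (Six4 and Nfatc1 added), 0 without both replicates 2, and 0 to 3 when single libraries were left out. The genes called among all tested, 2739, were 846 to 2785 without single libraries and 237 without both replicates 2. The direction was kept by 7 of the 9 genes in all 16 alternatives. The exceptions were Eya4, at 0.10 with library size alone and 0.023 without both replicates 2 (−0.18 at the lowest, without control replicate 1), and Nfix, at 0.089 with library size alone. Of the fast-fibre genes, 13 lower became 4 without the 20 most abundant genes, which removes some of them, and 8 with a sex covariate. Of the slow-fibre genes, 5 higher became 13 with no filter and 8 with a sex covariate or library size alone.

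The replicate numbers are shared by the groups, but deviations from the group means of libraries with the same number correlated over genes with r of −0.11, −0.17 and 0.02, so the numbers were not taken as pairs. With the replicate block, 1 of the 9 genes was higher and 1 lower, Prox1 and Six4 (edgeR adjusted p = 0.0257 and 0.0434), Sox6 and Maf did not pass (0.0550 and 0.0772), 1731 genes were called, and 3 fast-fibre genes were lower and 8 slow-fibre genes higher. The cause of these differences was not tested. Prox1, with 169 to 365 counts per library, is the gene whose level is least precise by depth.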

Other observations

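A long noncoding RNA gene beside the fast myosin heavy chain cluster of chromosome 11, 2310065F04Rik (GRCm38 chr11:67112461-67120080), a transcript of fast fibres, was at 37.4, 52.7 and 31.3 CPM in control and 13, 7.82 and 12.5 CPM in Myf5Cre-Pcyt2. The gene fell, its log2 fold change being −1.87 (SE 0.21, edgeR adjusted p = 0.00142), with no overlap between the groups, and passed in all 16 alternatives (adjusted p up to 0.00823). Sox6os, an antisense gene within the Sox6 locus that shares 0 exon bases with Sox6, had 63, 67 and 36 counts in control and 23, 29 and 37 counts in Myf5Cre-Pcyt2. Its level fell from 3.10 ± 0.923 to 1.40 ± 0.268 CPM (SD, n = 3; log2 fold change −1.14, SE 0.27, edgeR adjusted p = 0.0174), and it passed in 13 of 16 alternatives (adjusted p up to 0.190). No source used here says whether counting used strand, so reads from Sox6 introns may not have been told apart from those of Sox6os. Both 2310065F04Rik and Sox6os were chosen after their values were seen.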
